A study of Mus musculus with 17 samples.

Results

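The EGR factors and their NAB corepressors, 6 genes in all, were followed by symbol through a table of 25899 gene symbols. The members were the transcription factors Egr1, Egr2, Egr3 and Egr4 and the corepressors Nab1 and Nab2, and all 6 symbols were present. RNA made during 15 minutes of labelling with 5 mM ethynyl uridine was captured and sequenced in 17 libraries. The cells were E14tg2a, a mouse embryonic stem (ES) cell line of 129SV background. Every group carried the same changes: Erk1 and Erk2 were knocked out, ERK activity came from a FLAG-ERK2 Q103A cDNA, a form of ERK2 that the small molecule PP1 inhibits, and cRAF-ErT2, a RAF kinase that 4-hydroxytamoxifen (4OHT) turns on, was stably expressed. All cells had also spent 24 hours in serum and LIF with 250 nM PD173074, an FGF receptor inhibitor. The groups were PP1+4OHT (2 µM PP1 with 250 nM 4OHT), MEKi+4OHT (1 µM of a MEK inhibitor with 250 nM 4OHT), 4OHT alone for 2 hours, PP1 alone, MEKi alone, and DMSO, the cells given no 4OHT and no inhibitor. Each group had 3 libraries, from clones a, b and c, except DMSO, which had 2, from clones b and c. The replicates were clones of 1 cell line, so p-values measure the spread between these clones, and how long the cells given an inhibitor alone were treated is not clear from the labels.

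EGR factors are zinc-finger proteins that bind a GC-rich site, and Egr1 is among the best known immediate early genes, switched on within minutes of a growth signal without new protein synthesis. In many cell types the signal runs from RAF through MEK to ERK, which phosphorylates ELK factors bound with serum response factor at CArG boxes in EGR promoters. NAB1 and NAB2 bind a conserved inhibitory region of EGR1, EGR2 and EGR3, which EGR4 lacks, and repress EGR targets, in part through the NuRD complex. NAB genes are themselves EGR targets in several cell types, which makes the pair a known negative feedback arm.

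The promoter windows of Nab1, Egr2 and Nab2 carried different letters. Stretches of 250 bases before a RefSeq transcript start (GRCm38.p6) were searched on both strands for the CArG box, the EGR site GCGNGGGCG, the cAMP response element TGACGTCA and the ETS site CCGGAAGT. For 4 members, 8 such windows were used, and Egr1 and Egr3 are only named here. Nab1, Egr2 and Nab2 are shown because they rose with 4OHT, and because their windows differ in these matches. Capitals mark an EGR site in Nab1 and a CArG box in Egr2, and all 4 are written 5′ to 3′ along the gene. The Nab1 window was chr1:52500449-52500698 on the minus strand, the Egr2 windows chr10:67537316-67537565 and chr10:67537619-67537868 on the plus strand, and the Nab2 window chr10:127666704-127666953 on the minus strand.
Nab1: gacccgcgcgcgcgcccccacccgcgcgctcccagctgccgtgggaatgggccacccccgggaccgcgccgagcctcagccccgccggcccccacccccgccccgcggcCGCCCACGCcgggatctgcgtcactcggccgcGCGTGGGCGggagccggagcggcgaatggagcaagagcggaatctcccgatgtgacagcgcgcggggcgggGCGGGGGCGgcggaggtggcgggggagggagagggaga
Egr2, start at 67537566: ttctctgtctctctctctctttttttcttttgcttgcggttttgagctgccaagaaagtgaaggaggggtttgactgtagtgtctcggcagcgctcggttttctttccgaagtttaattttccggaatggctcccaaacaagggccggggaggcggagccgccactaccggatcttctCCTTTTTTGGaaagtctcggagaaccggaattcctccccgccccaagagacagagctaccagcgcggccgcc
Egr2, start at 67537869: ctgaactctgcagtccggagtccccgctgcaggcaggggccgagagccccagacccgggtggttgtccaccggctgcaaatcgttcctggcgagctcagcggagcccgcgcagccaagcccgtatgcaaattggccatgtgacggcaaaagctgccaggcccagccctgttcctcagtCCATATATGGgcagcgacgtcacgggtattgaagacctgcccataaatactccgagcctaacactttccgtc
Nab2: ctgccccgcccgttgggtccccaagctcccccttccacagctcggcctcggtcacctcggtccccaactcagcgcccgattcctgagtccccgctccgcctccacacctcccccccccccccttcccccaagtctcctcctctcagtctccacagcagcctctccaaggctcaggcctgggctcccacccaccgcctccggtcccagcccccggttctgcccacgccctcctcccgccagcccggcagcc

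Nab1 held 3 matches to the EGR site, at -141 to -133, -109 to -101 and -38 to -30 from the start, the first of them on the opposite strand. Of 32851 promoter windows, 4.7% held at least 1 EGR site and 46 (0.14%) held 3 or more. The cutoff of 3 equals the count in Nab1, which came from the same search, and the windows were not matched for base content. These shares are thus descriptions only. Each of the printed Egr2 windows held a CArG box, at -72 to -63 from its start, and 2 further Egr2 windows, which overlap the later one, held that same box. A CArG box was present in 1.47% of all windows. The cAMP response element was in 1.55% and the ETS site in 2.88% of all windows, and in none of the 8 windows of Nab1, Nab2, Egr2 and Egr4. Egr1 and Egr3 are not covered by this statement. Nab2, Egr4 and the most upstream Egr2 window had no match to any of the 4 motifs. A match is a run of letters, and binding was not measured here. The printed Nab1, Egr2 and Nab2 windows precede one RefSeq transcript start each, and these starts lie downstream of the gene's outermost start in GENCODE M21. The 3 EGR sites of Nab1 are thus inside its annotated span.

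Library totals ran from 5239690 to 11093390 counts. A set of 14 high-count loci was chosen because their shares of a library varied closely with that of Cdk8. Together they took 9.38% (4OHT, clone a) to 42.0% (PP1, clone a) of a library. Levels are given as CPM, which sets each count against a TMM-scaled library size, and 1 count was worth 0.0823 to 0.255 CPM. ES cell markers summed to 2888 to 3978 CPM in every library, with all 10 genes present, while 9 fibroblast markers summed to 4.50 to 12.6 CPM. The fibroblast sum was higher with 4OHT alone (10.1 to 12.6 CPM) than in DMSO (4.91 to 5.18 CPM), and was 4.50 to 6.80 CPM in PP1+4OHT, against 5.18 to 6.38 CPM in PP1. Of its 9 genes, 7 averaged under 1 CPM and 2 entered the test described below. In 4OHT against DMSO these went opposite ways, Twist1 by log2 3.87 ± 0.49 and Pdgfrb by -1.52 ± 0.32 (adjusted p = 5.47e-07 and 0.000345, edgeR). Primitive endoderm markers were lower with 4OHT alone (29.1 to 35.2 CPM, 8 genes) than in DMSO (65.4 to 71.6 CPM), and neural markers were too (13.6 to 17.9 against 33.3 to 48.3 CPM, 6 genes). With PP1+4OHT the primitive endoderm sum was 47.3 to 52.7 CPM, against 69.9 to 91.6 CPM in PP1. The trophoblast sum (6 genes) was 19.4 to 24.4 CPM in PP1+4OHT, against 33.9 to 39.7 CPM in PP1, and the neural sum was 21.0 to 28.2 CPM in PP1+4OHT, against 37.6 to 42.5 CPM in PP1. In MEKi+4OHT the neural sum was 19.6 to 28.6 CPM, against 33.0 to 38.6 CPM in MEKi. The ES cell sum was 2888 to 3118 CPM in MEKi+4OHT, against 3151 to 3462 CPM in MEKi. It was 3733 to 3978 CPM in PP1+4OHT, against 3298 to 3654 CPM in PP1. Between 4OHT alone and DMSO the ES cell sums overlapped, and so did the trophoblast sums, but single genes moved both ways. Of 10 ES cell markers 2 were called higher and 3 lower, beside 25.7% and 26.3% of all genes. Of 5 trophoblast markers tested, Cdx2 rose by log2 6.79 ± 0.88 and Tfap2c fell by 1.08 ± 0.20 (adjusted p = 6.26e-07 and 0.000123, edgeR), and the others were not called. The fibroblast, primitive endoderm and trophoblast sums overlapped between MEKi+4OHT and MEKi. At most 1 fibroblast marker and 1 or 2 neural markers were at 0 counts in a group. Whether cell make-up had a part in the members' values was not tested, and in bulk RNA fewer cells of a type and less RNA per cell cannot be told apart. In the test across all genes, edgeR's quasi-likelihood test with Benjamini-Hochberg adjustment, 14907 genes were tested and a gene was called at an adjusted p under 0.05. All log2 fold changes below come from this test and are given ± an approximate SE.

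With RAF switched on and no inhibitor, all 5 members that could be tested rose. The count of 5 of 5 called higher stands against 25.7% of all tested genes called higher and 26.3% called lower in 4OHT against DMSO. Egr3 passed the filter on low counts only through libraries given 4OHT. Its part in this count, and in later counts that use a 4OHT group, was therefore not independent of passing. Egr1 encodes the best studied factor of the family. It stood at 1804, 1855 and 1899 CPM in the 4OHT libraries, against 41.3 and 57.1 CPM in the DMSO libraries. No library of either group came near the other group, and the difference was 37.7-fold (log2 5.24 ± 0.17, adjusted p = 1.77e-14, edgeR). It ranked 18 from the top among all tested genes.

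Egr3, a factor known for roles in muscle spindles, neurons and lymphocytes, was close to silent before 4OHT. It was at 93.7, 101 and 81.0 CPM in 4OHT, against 0.0823 and 0.648 CPM in DMSO, which is 2222 counts against 8. All 3 treated libraries were far above both DMSO libraries, which themselves differed by 1 count against 7. The fitted log2 change of 7.98 ± 0.34 (adjusted p = 7.85e-15, edgeR) was the third highest of all tested genes. Its size rests on those few DMSO counts: it was 7.14 without DMSO clone b and 9.94 without DMSO clone c. The ratio of the summed counts, scaled for depth, was 261 (95% exact interval 132 to 606, counting error only).

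Egr2, best known as a regulator of myelination and hindbrain patterning, was a low gene throughout. It had 7.05, 8.27 and 8.79 CPM in 4OHT, against 1.48 and 1.67 CPM in DMSO. The groups did not overlap, and Egr2 rose 5.07-fold (log2 2.34 ± 0.33, adjusted p = 2.50e-06, edgeR), the smallest change of the 5. Its 17 libraries held 335 counts in all, with 3 to 75 in a library, so its values carry more counting error than those of Egr1.

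Both corepressor genes rose as well. Nab1 was at 232, 239 and 235 CPM in 4OHT, against 12.9 and 14.8 CPM in DMSO (16.97-fold, log2 4.08 ± 0.15, adjusted p = 3.97e-16, edgeR). Nab2 was at 191, 237 and 258 CPM in 4OHT, against 12.1 and 15.4 CPM in DMSO (16.7-fold, log2 4.06 ± 0.14, adjusted p = 9.16e-17, edgeR). For both genes every 4OHT library was above every DMSO library, and the fold changes of the pair differed by less than the SE of either. Among all tested genes they ranked 44 and 45 from the top.

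**Figure D1:**
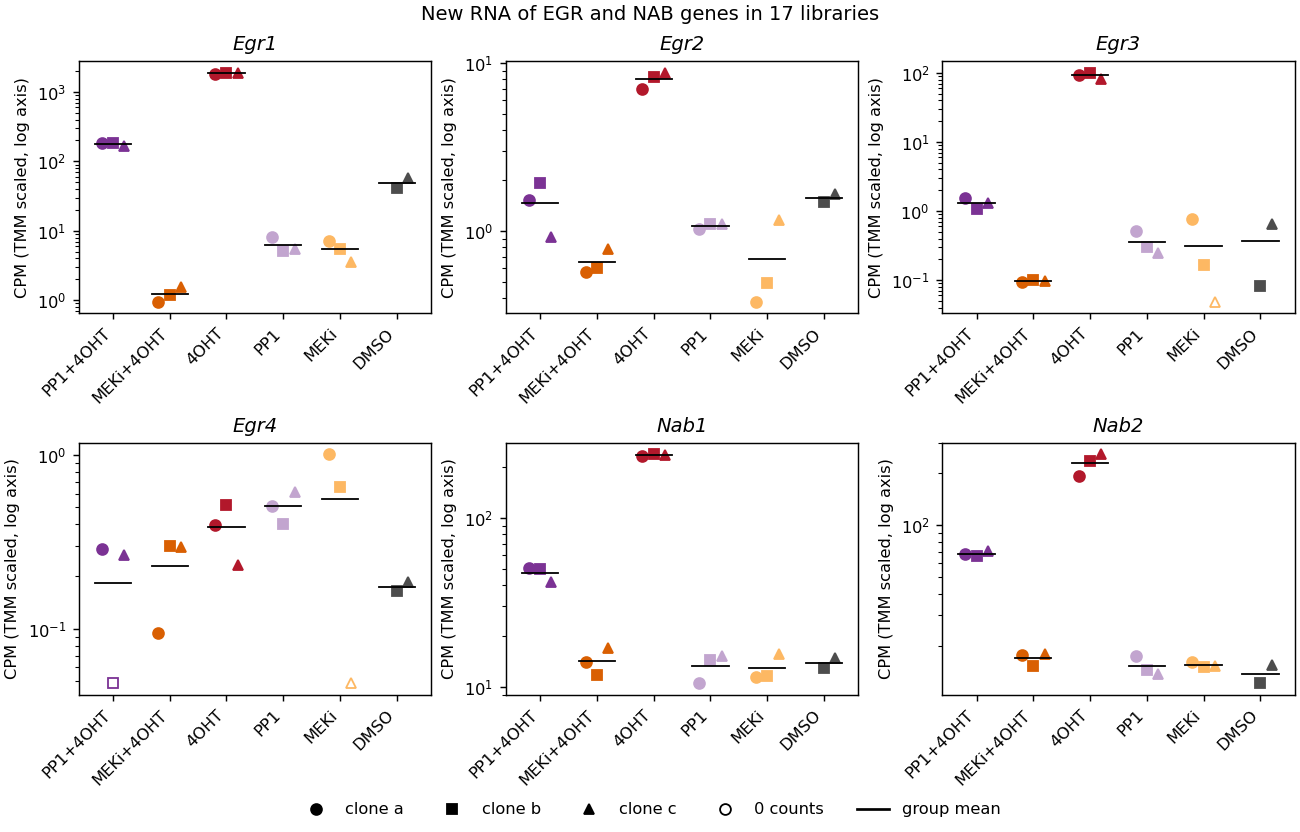
New RNA of the 6 genes in each of the 17 libraries, in CPM after TMM scaling on a log axis. Points are libraries (shape gives the clone), bars are group means, and open symbols are libraries with 0 counts drawn at the bottom. Egr1 sat at 166 to 181 CPM with PP1+4OHT, 0.9499 to 1.57 with MEKi+4OHT and 1804 to 1899 with 4OHT alone, while Egr4 stayed at or below 1.01 CPM.

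With the MEK inhibitor present, no member was called higher with 4OHT, and Egr1 was called lower. Of 5 tested members, 0 were called higher and 1 lower by edgeR in MEKi+4OHT against MEKi, where 7.65% of all genes were called higher and 7.03% lower. The same 1 member was past an unadjusted p of 0.05, and DESeq2 and limma-voom also called 1. Egr1 was at 0.9499, 1.20 and 1.57 CPM (10, 12 and 16 counts) in MEKi+4OHT, against 7.19, 5.56 and 3.59 CPM in MEKi. The groups did not overlap, the value was lower in 3 of 3 clones, and the fall was 4.26-fold (log2 -2.09 ± 0.31, adjusted p = 0.000138, edgeR). These were the lowest Egr1 levels of the series.

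The other members did not pass the test in that comparison. Egr2 was at 0.570, 0.599 and 0.784 CPM in MEKi+4OHT, against 0.379, 0.491 and 1.16 CPM in MEKi, and the groups overlapped (log2 -0.16 ± 0.46, adjusted p = 0.873, edgeR). Egr3 had 1 count in each MEKi+4OHT library (0.0950 to 0.0998 CPM), against 6, 1 and 0 counts in MEKi (0.757, 0.164 and 0 CPM). With 3 counts against 7 the depth-scaled ratio was 0.339 with a 95% exact interval of 0.0566 to 1.49, counting error only. At this depth a fall could not be told from no change, while a rise above 1.49-fold lay outside the interval. Of the 7 counts, 6 came from MEKi clone a. Nab1 was at 14.1, 11.8 and 17.1 CPM in MEKi+4OHT, against 11.4, 11.6 and 15.7 CPM in MEKi (log2 0.13 ± 0.15, adjusted p = 0.63, edgeR). Nab2 was at 17.8, 15.2 and 17.9 CPM in MEKi+4OHT, against 16.2, 15.0 and 15.2 CPM in MEKi (log2 0.13 ± 0.13, adjusted p = 0.556, edgeR). Both NAB genes overlapped between the groups, and 2 SE on each side gave -0.17 to 0.42 for Nab1 and -0.13 to 0.39 for Nab2.

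With PP1 present, 4OHT still raised 4 of the 5 tested members, against 18.4% of all genes called higher and 12.8% called lower in PP1+4OHT against PP1. Egr3, which is among them, passed the filter on low counts only through libraries given 4OHT. Egr1 was at 181, 181 and 166 CPM in PP1+4OHT, against 8.17, 5.08 and 5.51 CPM in PP1. The groups lay far apart, and the rise of 30.0-fold (log2 4.91 ± 0.17, adjusted p = 1.66e-12, edgeR) was the highest of all 14907 tested genes. Nab1 was at 50.6, 49.6 and 41.8 CPM in PP1+4OHT, against 10.5, 14.4 and 15.2 CPM in PP1 (3.44-fold, log2 1.78 ± 0.14, adjusted p = 2.02e-09, edgeR). Nab2 was at 67.6, 66.6 and 70.6 CPM in PP1+4OHT, against 17.4, 14.5 and 13.7 CPM in PP1 (4.58-fold, log2 2.19 ± 0.12, adjusted p = 2.01e-11, edgeR). Every PP1+4OHT library was above every PP1 library for both corepressor genes.

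The remaining EGR factors were low under PP1. Egr3 was at 1.53, 1.07 and 1.32 CPM in PP1+4OHT, against 0.510, 0.299 and 0.245 CPM in PP1 (37 counts against 7). The groups did not overlap and Egr3 was called higher (log2 2.00 ± 0.59, adjusted p = 0.0125, edgeR). That call depended on single libraries, with an adjusted p of 0.0545 without PP1+4OHT clone a, 0.0647 without PP1 clone b and 0.0575 without PP1 clone c (edgeR), and 0.0507 by limma-voom. Egr2 was at 1.53, 1.94 and 0.927 CPM in PP1+4OHT, against 1.02, 1.09 and 1.10 CPM in PP1. Those groups overlapped and the difference did not pass (log2 0.47 ± 0.39, adjusted p = 0.378, edgeR).

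**Figure D2:**
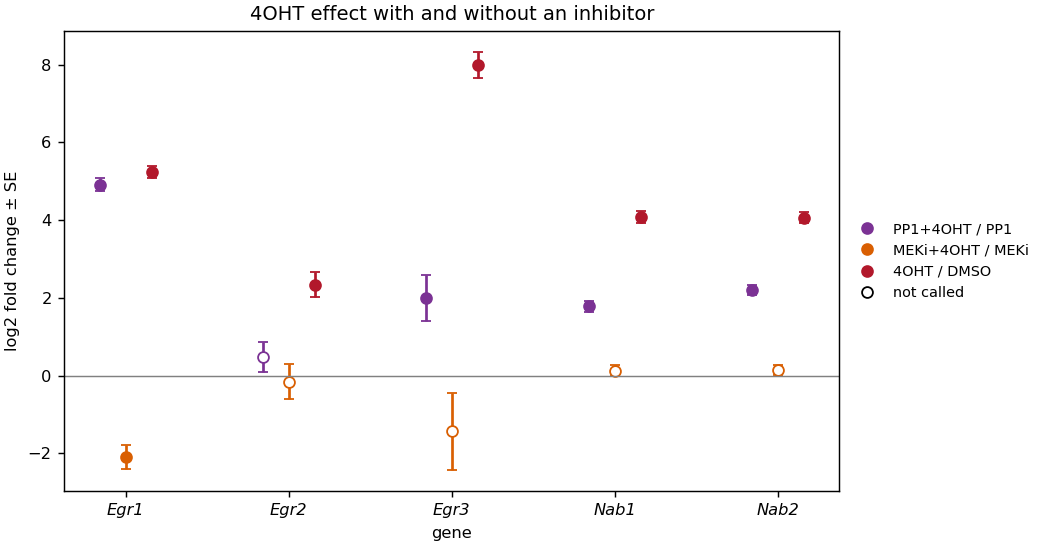
Log2 fold change with 4OHT for the 5 tested genes, with PP1 present (PP1+4OHT over PP1), with the MEK inhibitor present (MEKi+4OHT over MEKi) and with no inhibitor (4OHT over DMSO). Points are fitted values, bars are ± SE, and open points did not pass an adjusted p of 0.05. Egr1 changed by 4.91 with PP1 and by 5.24 with no inhibitor, while Nab1 and Nab2 changed by 1.78 and 2.19 with PP1 and by 4.08 and 4.06 with no inhibitor.

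The difference between these 4OHT effects was tested for each gene as an interaction. For the MEK inhibitor against no inhibitor, 5 of 5 members were called lower, where 19.3% of all genes were. Egr1 had an interaction of -7.33 ± 0.34 on the log2 scale and Egr3 of -9.42 ± 1.33 (adjusted p = 7.91e-12 and 4.79e-06, edgeR). Nab1 and Nab2 had -3.96 ± 0.21 and -3.93 ± 0.19 (adjusted p = 6.05e-13 and 1.01e-13, edgeR). Egr2 had the smallest, -2.50 ± 0.58 (adjusted p = 0.00136, edgeR), which without MEKi clone c was -1.81 with an adjusted p of 0.058. The Egr3 value moved to -7.41 without MEKi clone a, -10.2 without MEKi clone c, -8.59 without DMSO clone b and -11.4 without DMSO clone c.

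For PP1 against no inhibitor, 4 of 5 members were called lower, where 11.4% of all genes were, and Egr1 did not pass. Its 4OHT effect was 4.91 with PP1 and 5.24 without, a difference of -0.33 ± 0.24 (adjusted p = 0.334, edgeR; 2 SE on each side give -0.81 to 0.15), and its sign turned to 0.07 when library totals were the only scaling. Nab1 and Nab2 had interactions of -2.30 ± 0.20 and -1.86 ± 0.18 (adjusted p = 1.36e-08 and 6.48e-08, edgeR). Egr3 had -5.98 ± 1.09 (adjusted p = 0.000269, edgeR), which was -5.17 without DMSO clone b and -7.96 without DMSO clone c. Egr2 had -1.87 ± 0.52 (adjusted p = 0.00966, edgeR), but -1.48 with an adjusted p of 0.0522 when library totals were the only scaling.

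These 4OHT effects on Egr1 started from unequal levels. Each inhibitor given alone lowered Egr1, and no other member passed the test. Of 5 tested members 1 was called lower in MEKi against DMSO, where 0.449% of all genes were, and 1 in PP1 against DMSO, where 0.161% were. Egr1 was at 7.19, 5.56 and 3.59 CPM in MEKi, against 41.3 and 57.1 CPM in DMSO, a 9.24-fold fall (log2 -3.21 ± 0.18, adjusted p = 6.84e-09, edgeR). It was at 8.17, 5.08 and 5.51 CPM in PP1, against the same DMSO libraries, an 8.36-fold fall (log2 -3.06 ± 0.19, adjusted p = 2.78e-08, edgeR). The inhibitor groups did not overlap with DMSO, and in each comparison Egr1 had the lowest log2 fold change of all 14907 tested genes. These comparisons share their DMSO libraries.

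The corepressors did not pass either test. Nab1 was at 11.4, 11.6 and 15.7 CPM in MEKi and 10.5, 14.4 and 15.2 CPM in PP1, against 12.9 and 14.8 CPM in DMSO, with all 3 ranges overlapping. Its log2 fold change was -0.08 ± 0.16 for MEKi and -0.00 ± 0.17 for PP1. Nab2 was at 15.0 to 16.2 CPM in MEKi and 13.7 to 17.4 CPM in PP1, against 12.1 and 15.4 CPM in DMSO (log2 0.18 ± 0.15 and 0.12 ± 0.15). With 2 SE on each side, the changes lay within -0.41 to 0.25 and -0.34 to 0.33 for Nab1, and within -0.12 to 0.47 and -0.18 to 0.42 for Nab2. Egr2 was lower in every inhibitor library than in either DMSO library, at 0.379 to 1.16 CPM in MEKi and 1.02 to 1.10 CPM in PP1, against 1.48 and 1.67 CPM in DMSO, but did not pass (adjusted p = 0.32 and 0.662, edgeR). Its unadjusted p was 0.0175 for MEKi and 0.21 for PP1 (edgeR). The depth-scaled count ratio of Egr2 to DMSO was 0.471 for MEKi (95% exact interval 0.252 to 0.852, counting error only). For PP1 it was 0.692 (0.395 to 1.19). Egr3 had 7 counts in MEKi and 7 in PP1, against 8 in DMSO.

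With RAF on, both inhibitors took every tested member below its level with 4OHT alone. In MEKi+4OHT against 4OHT 5 of 5 were called lower, where 28.4% of all genes were, and in PP1+4OHT against 4OHT 5 of 5, where 20.5% were. These comparisons share their 4OHT libraries. Egr1 averaged 1.24 ± 0.311 CPM in MEKi+4OHT, against 1853 ± 47.5 CPM in 4OHT (SD, n = 3 each), 1482-fold lower (log2 -10.53 ± 0.20, adjusted p = 4.56e-18, edgeR). Egr3 had 3 counts in MEKi+4OHT, against 2222 in 4OHT, a depth-scaled ratio of 0.00107 (95% exact interval 0.000221 to 0.00314, counting error only). Nab1 fell by 4.04 ± 0.13, Nab2 by 3.75 ± 0.11 and Egr2 by 3.59 ± 0.33 on the log2 scale under MEKi. Under PP1, Egr3 fell 69.5-fold (log2 -6.12 ± 0.24, adjusted p = 4.65e-15, edgeR), the lowest log2 fold change of all tested genes, and Egr1 fell 10.5-fold (log2 -3.39 ± 0.13, adjusted p = 2.47e-13, edgeR). Egr2, Nab1 and Nab2 fell 5.30-fold, 4.95-fold and 3.35-fold under PP1.

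**Figure D3:**
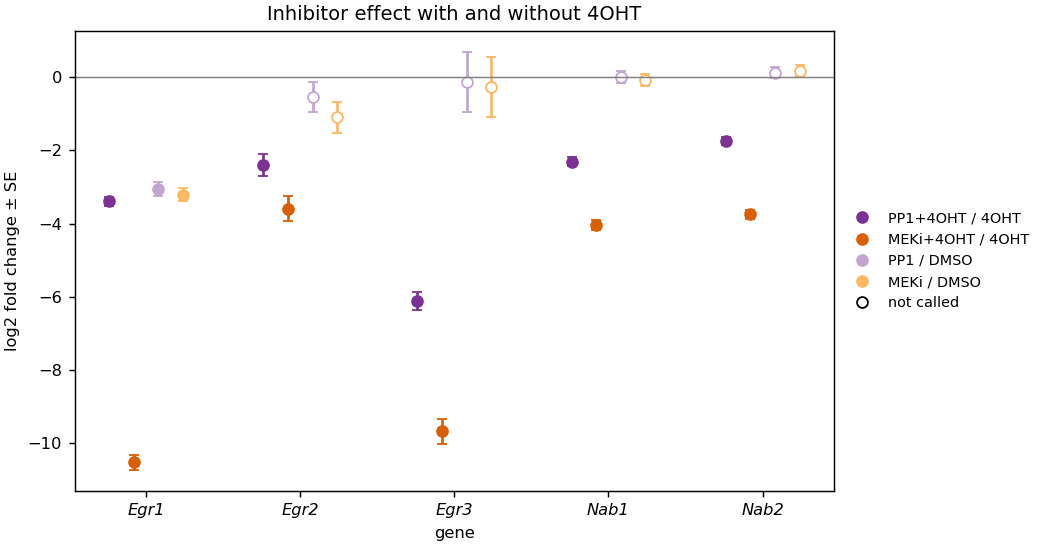
Log2 fold change with each inhibitor for the 5 tested genes, with RAF on (PP1+4OHT over 4OHT and MEKi+4OHT over 4OHT) and without 4OHT (PP1 over DMSO and MEKi over DMSO). Points are fitted values, bars are ± SE, and open points did not pass an adjusted p of 0.05. Egr1 is the 1 gene with filled points in all 4 comparisons, at -3.39, -10.53, -3.06 and -3.21, and Nab1 and Nab2 lie near 0 without 4OHT.

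Set side by side, the inhibitors differed where RAF was on and were not told apart where it was off. In PP1+4OHT against MEKi+4OHT 5 of 5 members were called higher, where 15.2% of all genes were. Egr1 averaged 176 ± 8.37 CPM in PP1+4OHT and 1.24 ± 0.311 CPM in MEKi+4OHT (SD, n = 3 each), 141-fold higher (log2 7.14 ± 0.20, adjusted p = 4.87e-15, edgeR) and second from the top of all tested genes. Nab1 was 3.32-fold and Nab2 4.02-fold higher (log2 1.73 ± 0.13 and 2.01 ± 0.11, adjusted p = 3.01e-10 and 1.63e-12, edgeR). Egr3 had 37 counts in PP1+4OHT, against 3 in MEKi+4OHT, a ratio of 13.4 (95% exact interval 4.25 to 68.0; log2 3.57 ± 0.68, adjusted p = 0.000325, edgeR). Egr2 passed by little (log2 1.19 ± 0.40, adjusted p = 0.0267, edgeR). Its adjusted p was 0.0648 without PP1+4OHT clone a, 0.146 without PP1+4OHT clone b, 0.0855 without MEKi+4OHT clone a, 0.0739 without MEKi+4OHT clone b, and 0.0923 with library totals as the only scaling.

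In PP1 against MEKi, 0 members were called by edgeR, where 0.0738% of all genes (11) were, and 0 members reached an unadjusted p under 0.05, as 606 genes did. DESeq2 and limma-voom called 0 members too. Egr1 differed by log2 0.14 ± 0.24 there, and 2 SE on each side gave -0.34 to 0.63. The interaction of 4OHT with PP1 against MEKi was called higher for 3 of 5 members, where 7.41% of all genes were. These were Egr1 (6.995 ± 0.35), Nab1 (1.66 ± 0.20) and Nab2 (2.06 ± 0.18), with adjusted p of 8.67e-11, 3.37e-06 and 1.39e-08 (edgeR). Egr2 did not pass (0.62 ± 0.61, adjusted p = 0.601, edgeR). Egr3 missed at 3.44 ± 1.18 (adjusted p = 0.0609, edgeR), with an adjusted p of 0.0111 without MEKi clone c, 0.0497 with no filter on low counts (both edgeR), and 0.0204 by DESeq2. Without MEKi clone a it was 1.42 with an adjusted p of 0.71 (edgeR), and over all alternatives it ran from 1.42 to 4.19 with an adjusted p of 0.0111 to 0.71.

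Egr4, described mainly in neurons and germ cells, did not pass the filter on low counts and was not in the test. It had 48 counts in the 17 libraries together, with 0 to 8 in each. Its levels were 0.287, 0 and 0.265 CPM in PP1+4OHT, 0.0950, 0.299 and 0.294 in MEKi+4OHT and 0.397, 0.517 and 0.234 in 4OHT. The libraries without 4OHT had 0.510, 0.398 and 0.613 CPM in PP1, 1.01, 0.654 and 0 in MEKi, and 0.165 and 0.185 in DMSO. Neighbouring groups in the order of means all overlapped, and 4OHT against DMSO gave 9 counts against 4, a depth-scaled ratio of 2.12 (95% exact interval 0.591 to 9.40). The libraries with 0 counts allow up to 0.291 CPM, the worth of 3 counts there. With no filter on low counts the adjusted p of Egr4 was 0.278 to 1 over the 12 comparisons (edgeR). The 5 other members passed the filter, and did so also with the 4OHT-alone libraries left out. On only the libraries given no 4OHT (PP1, MEKi and DMSO) Egr3 would not have passed, so its change was not independent of passing.

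The order of the levels was not the same for all members. For Egr1 the means ran 4OHT, PP1+4OHT, DMSO, PP1, MEKi and MEKi+4OHT, and only the PP1 and MEKi libraries overlapped their neighbour. For Nab1 and Nab2, 4OHT and then PP1+4OHT stood clear, and the remaining 4 groups overlapped in a chain from 12.9 to 14.3 CPM for Nab1 and from 13.7 to 16.96 CPM for Nab2. Egr3 had the same leading groups with a remainder at 0.0976 to 0.365 CPM, and for Egr2 only 4OHT stood clear, with the others at 0.651 to 1.57 CPM. Levels of different genes can be compared only per length, and which features were counted is not known. Per kilobase of exon in 4OHT, levels were 413 CPM for Egr1, 77.7 for Nab2, 57.3 for Nab1, 20.9 for Egr3, 2.37 for Egr2 and 0.178 for Egr4. Per kilobase of gene span they were 359 for Egr1, 29.9 for Nab2, 16.99 for Egr3, 5.42 for Nab1, 1.20 for Egr2 and 0.155 for Egr4, so the order of Nab1 and Egr3 depends on the length used.

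The ratio of factor to corepressor differed between the groups. The ratio of Egr1 counts to Nab2 counts was 2.67, 2.72 and 2.36 in PP1+4OHT, 0.0535, 0.0789 and 0.0874 in MEKi+4OHT and 9.42, 7.83 and 7.37 in 4OHT. It was 0.471, 0.349 and 0.402 in PP1, 0.445, 0.370 and 0.236 in MEKi, and 3.41 and 3.72 in DMSO. By this ratio to Nab2 the 4OHT libraries were highest, DMSO came next and PP1+4OHT lay below DMSO, with no overlap between these 3 groups, while PP1 and MEKi overlapped. The ratio to Nab1 did not order DMSO and PP1+4OHT in that way: it was 3.58, 3.64 and 3.98 in PP1+4OHT, against 3.20 and 3.86 in DMSO, and these overlapped. It was 0.0676 to 0.102 in MEKi+4OHT and 7.78 to 8.07 in 4OHT, and 4OHT was again the highest group. The NAB genes held 93.4% ± 1.34 of the 6 genes' counts in MEKi+4OHT, 19.2% ± 0.886 in 4OHT (SD, n = 3 each) and 35.2% ± 2.23 in DMSO (SD, n = 2). Nab2 to Nab1 moved much less, with group means between 1.45 in PP1+4OHT and 0.972 in 4OHT. Because the genes differ in length, these are ratios of counts and not of molecules. The 6 genes together made 2417 ± 79.5 CPM in 4OHT (SD, n = 3), against 78.9 ± 15.4 CPM in DMSO (SD, n = 2).

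**Figure D4:**
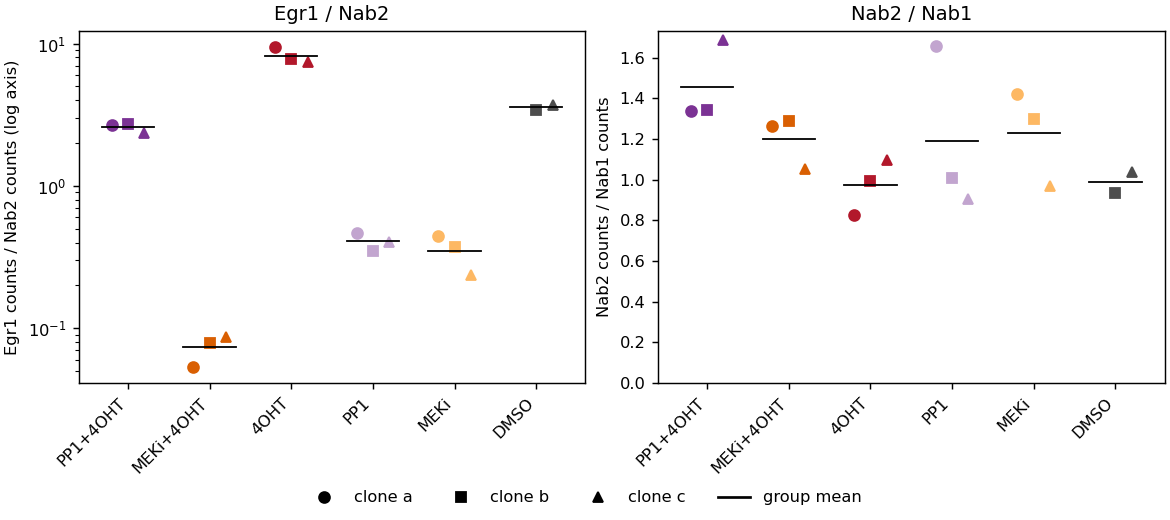
Ratio of Egr1 to Nab2 counts (left, log axis) and of Nab2 to Nab1 counts (right, linear axis) in each library. Points are libraries, with the shape giving the clone, and bars are group means. The Egr1 to Nab2 ratio ran from 0.0535 in a MEKi+4OHT library to 9.42 in a 4OHT library, while the Nab2 to Nab1 ratio stayed between 0.827 and 1.69.

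By position, the members are spread over the genome (mm10, GENCODE release M21). Egr1 (ENSMUSG00000038418) lies on chromosome 18 from 34859823 to 34864984, Egr3 (ENSMUSG00000033730) on chromosome 14 from 70077203 to 70082614, and Egr4 (ENSMUSG00000071341) on chromosome 6 from 85511121 to 85513589. Nab1 (ENSMUSG00000002881) lies on chromosome 1 from 52457294 to 52500679 and spans 43386 bases, by far the longest of the 6. Egr2 (ENSMUSG00000037868), from 67535475 to 67542188, and Nab2 (ENSMUSG00000025402), from 127660918 to 127668568, are both on chromosome 10. The strand setting used for counting is not known, and Nab2 shares 40 bases with Stat6, 1646 with the antisense gene Gm16229 and 1668 with Nemp1, all on the other strand. Without the strand setting, reads in these shared bases cannot be assigned to one gene, and they were not counted separately here. Stat6 changed by log2 1.14 ± 0.11 and Nemp1 by 1.20 ± 0.10 in 4OHT against DMSO (adjusted p = 5.39e-09 and 4.21e-10, edgeR), beside 4.06 for Nab2. With PP1 present they changed by 0.53 ± 0.10 and 0.63 ± 0.09 (adjusted p = 0.000357 and 1.79e-05, edgeR), less than Nab2 itself. The longest identical stretch between the transcripts of 2 members was 46 bases, between Nab1 and Nab2, followed by 44 bases between Egr2 and Egr3 and 38 between Egr3 and Egr4. Egr1 shared no more than 17 bases with any other member.

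**Figure D5:**
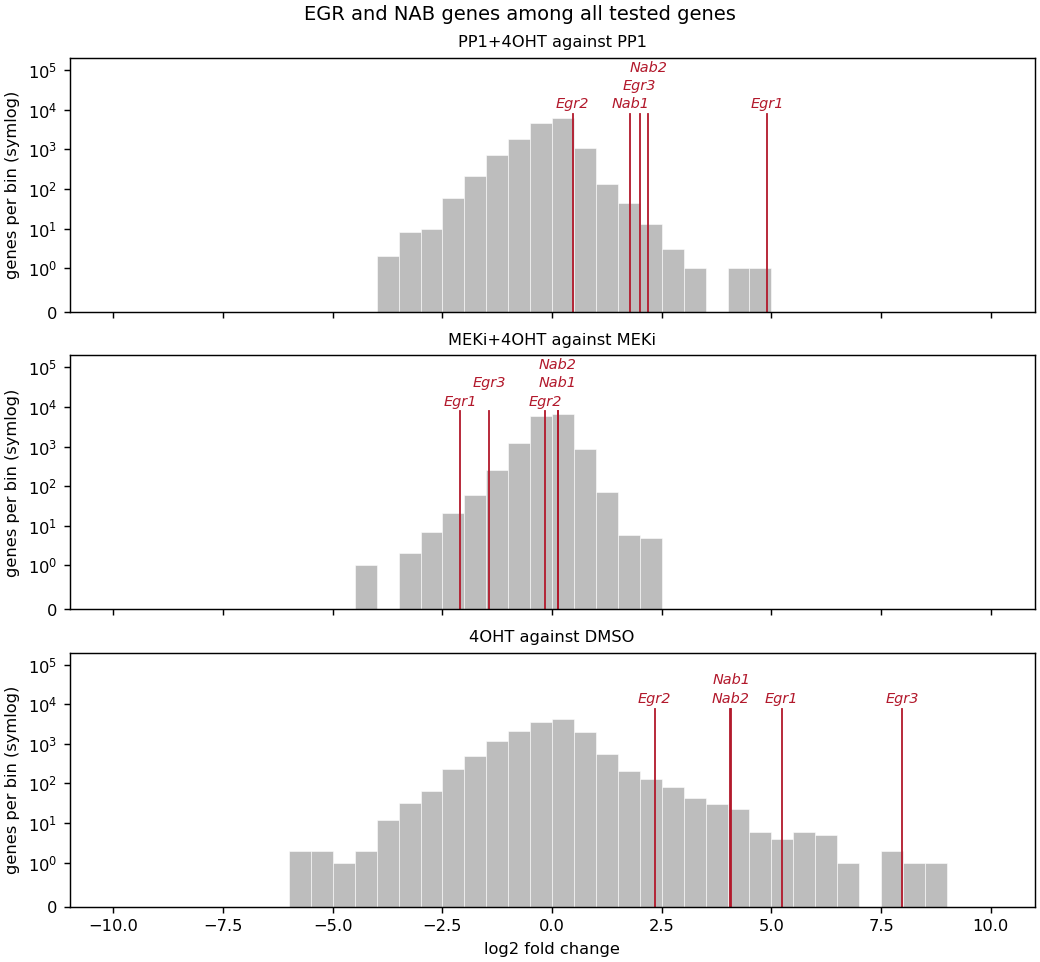
Log2 fold changes of all 14907 tested genes (grey bars, genes per bin of 0.5, counts on a symmetric log axis) with the 5 tested members as red lines, for PP1+4OHT over PP1, MEKi+4OHT over MEKi and 4OHT over DMSO. Egr1 is the rightmost gene with PP1 present (4.91) and lies in the left tail with the MEK inhibitor (-2.09), while Nab1 and Nab2 fall together at 4.08 and 4.06 with no inhibitor.

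Genes that were no members but whose levels tracked a member were found by Pearson's r of log2 CPM over the 17 libraries, among 12040 genes. All r values share the same libraries and the 3 4OHT libraries that stand apart, and are descriptions only. Closest to Egr1 were Sirt1 (r = 0.988), which encodes a deacetylase, Nufip2 (0.988) and Zfp719 (0.983). Sirt1 had its lowest mean, 120 CPM, in MEKi+4OHT and its highest, 477 CPM, in 4OHT, as Egr1 did, but in 4OHT against DMSO it changed by only 1.20 on the log2 scale. Closest to Egr3 were Zfp800 (0.985), Anxa7 (0.982), an annexin gene, and Fosl1 (0.981), which encodes the AP-1 factor FRA1. Nab1 was closest to Fis1 (0.995), of mitochondrial fission, Prpf4b (0.991) and Dnaja1 (0.991), and Nab2 to Arpc2 (0.987), an actin-branching subunit, Plaur (0.987), the urokinase receptor, and Midn (0.986). Plaur had a log2 change of 4.66 in 4OHT against DMSO and of 2.43 in PP1+4OHT against PP1, beside 4.06 and 2.19 for Nab2. By rank Plaur tracked Nab2 less closely, with a Spearman's rho of 0.576. Among the genes closest to Egr2 were Otud5 (0.970), a deubiquitinase gene, and E2f3 (0.960), a cell cycle factor gene. Ranked by Spearman's rho instead, the 3 closest genes were other ones for every member but Egr2, which kept 1.

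Other genes of the pathway were described by 4 lists. Of 31 immediate early genes outside the EGR family, 30 were tested, and in 4OHT against DMSO 23 rose and 3 fell, with a median log2 fold change of 1.56, beside -0.02 for all tested genes, of which 25.7% were called higher and 26.3% lower. The AP-1 genes Fosb (6.37 ± 0.33), Fosl2 (6.32 ± 0.24) and Fos (4.09 ± 0.20) and the synaptic gene Arc (5.70 ± 0.13) had the largest changes. With the MEK inhibitor 4 of 30 rose and 2 fell, beside 7.65% and 7.03% of all genes, and the median was 0.01. Myc, a growth regulator, fell by 2.60 ± 0.27 and Trib1, a pseudokinase gene, by 1.07 ± 0.17, while Gadd45b, a stress gene, rose by 1.10 ± 0.16 and Plk2, a kinase gene, by 0.74 ± 0.13. With PP1 19 rose and 3 fell, beside 18.4% and 12.8% of all genes, with a median of 0.66, led by Fosb (2.84 ± 0.60), Arc (2.03 ± 0.12), Fos (2.00 ± 0.23) and Fosl2 (1.75 ± 0.26). None of these reached the 4.91 of Egr1 under PP1.

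The regulators known to act at EGR promoters did not share a direction. Of 13 tested, 5 rose and 5 fell in 4OHT against DMSO, with a median of -0.05, beside 25.7% of all genes higher and 26.3% lower. The RSK kinase gene Rps6ka3 rose by 1.27 ± 0.11 and Rps6ka2 of the same family fell by 1.18 ± 0.09, as did the related kinase gene Rps6ka4 (1.18 ± 0.28), while the ELK factor Elk3 fell by 0.84 ± 0.16. Of 13 NuRD subunits, the complex that NAB proteins recruit, 9 rose and 2 fell in the same comparison, beside the same shares, with a median of 0.49. Chd4, the remodelling subunit known to bind NAB2, rose by 1.31 ± 0.18, Chd3 by 1.08 ± 0.26, Rbbp7 by 0.95 ± 0.08 and Mta2 by 0.89 ± 0.15. With the MEK inhibitor 1 of the regulators rose and 2 fell, and 1 NuRD subunit rose and 1 fell, of 13 in each list and beside 7.65% of all genes higher and 7.03% lower, so these counts were near the background. With PP1 4 regulators rose and 1 fell, and 3 NuRD subunits rose and 1 fell, beside 18.4% of all genes higher and 12.8% lower.

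Genes described as EGR targets in other cells were mixed. Of 32, 28 were tested, and 10 rose and 8 fell in 4OHT against DMSO, with a median of 0.29. Of all genes 25.7% were higher and 26.3% lower there, and the count of falls was near that background. Arc (5.70 ± 0.13), which is also in the immediate early list, Tgfb1 (2.93 ± 0.17), a growth factor gene, and Pdgfa (1.49 ± 0.10), a platelet-derived growth factor gene, were higher, and Ccnd1, the cyclin D1 gene, fell by 1.69 ± 0.17. With PP1 9 rose and 4 fell, beside 18.4% and 12.8% of all genes, with Arc (2.03 ± 0.12), Tgfb1 (1.44 ± 0.16) and Pdgfa (0.81 ± 0.09) again at the top. With the MEK inhibitor 1 rose and 2 fell, beside 7.65% and 7.03% of all genes: the neurotrophin receptor gene Ngfr rose by 1.36 ± 0.14, the inhibitor of differentiation gene Id3 fell by 2.62 ± 0.39, and Trp53, the p53 gene, fell by 0.47 ± 0.11. Each of these named changes passed an adjusted p of 0.05 in edgeR's quasi-likelihood test.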

How the data were processed

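The authors deposited whole-number counts per gene symbol, not normalized. The submitters' processing notes name STAR, featureCounts and the mm10 build. Versions, annotation, counted features and strand setting are not given in the sources used. All 17 count columns were matched to libraries through the treatment and clone in their labels.

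The test was edgeR 4.0.16 (R 4.3.3) after TMM scaling, with filterByExpr keeping 14907 of 25899 genes and 1 term per group in a robust quasi-likelihood model of all libraries (11 residual degrees of freedom). Totals were 5239690 to 11093390 counts per library, so 1 count was worth 0.0823 to 0.255 CPM. There were 12 comparisons, of which 3 were interactions, and p-values were adjusted over all genes tested. The SE is the absolute log2 fold change over the square root of F. It can be too small where counts are few. The procedure was tested on simulated data. Ratios of summed counts have exact 95% intervals, which cover counting error only.

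The members, the gene lists and the rule for naming genes were chosen with earlier results of these data known. The rule named all members, genes overlapping them, the 3 genes closest to each tested member (average log2 CPM of at least 1) and up to 4 called genes per list with the largest changes. A gene that this rule picks is not reported here. Gene positions are from GENCODE M21 and promoter windows from RefSeq (GRCm38.p6), all matched by symbol. Whether clone letters pair libraries was checked after subtraction of group means. Across genes, the mean correlation was 0.0859 (-0.147 to 0.362) for 40 library pairs that share a clone and -0.0425 (-0.404 to 0.404) for 80 that do not. The range of the pairs that share a clone thus lay inside that of the others, but their mean was higher. Some pairing by clone is therefore possible, and the main fit does not use it. The letters in the labels name the clone, so the replicate block was run as an alternative. Others were DESeq2 size factors, library totals, library totals without the 14 high-count loci, no filter or a stricter filter (10 counts), DESeq2 1.42.0, limma-voom (limma 3.58.1), only the groups compared, and each library left out.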

Additional observations from a re-analysis of the deposited data

Results flagged for a closer look

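The 4OHT effect on a member differed between conditions in 12 cases by a test of the difference itself (the interaction in edgeR's quasi-likelihood test, adjusted over all genes). The log2 effect with the MEK inhibitor minus that without inhibitor was -7.33 for Egr1, -2.50 for Egr2, -9.42 for Egr3, -3.96 for Nab1 and -3.93 for Nab2. The effect with PP1 minus that without inhibitor was -1.87 for Egr2, -5.98 for Egr3, -2.30 for Nab1 and -1.86 for Nab2. The effect with PP1 minus that with the MEK inhibitor was 6.995 for Egr1, 1.66 for Nab1 and 2.06 for Nab2. The Egr2 and Egr3 values rest on groups with few counts.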

How the results depend on the processing

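Over the alternatives run, 957 fold changes of members were recomputed: 911 kept their direction and side of the threshold, 11 lost and 3 gained a call, and 32 changed sign without being called in either fit. All 205 counts of called members stayed within 1.5 times their value. Library totals as the only scaling put the all-gene median at -0.32 (log2) in 4OHT against DMSO, and gave 1293 genes higher and 4823 lower there in place of 3832 and 3920, while all 5 members stayed higher. With clone as a replicate block (the paired fit) the log2 change of Nab1 in PP1 against DMSO was 0.0157 in place of -0.00335, and the block changed no call of a member. For that value the other signs were 0.0189 with DESeq2 size factors and with library totals without the high-count loci, 0.0158 with no filter, 0.0135 with at least 10 counts, 0.0159 with DESeq2, 0.0051 with limma-voom and 0.0126 with the groups compared alone. Library totals gave -0.0664 for Nab2 in PP1 against DMSO and 0.0654 for the Egr1 interaction of PP1 against no inhibitor, and limma-voom gave 0.429 for Egr3 in PP1 against DMSO. With each library left out in turn, values that changed sign ranged as follows. In PP1 against DMSO they were -0.0874 to 0.138 for Nab1, -0.0176 to 0.343 for Nab2 and -0.977 to 1.82 for Egr3. In MEKi against DMSO they were -0.232 to 0.0494 for Nab1 and -2.28 to 1.68 for Egr3. In MEKi+4OHT against MEKi they were -0.0215 to 0.291 for Nab1, -0.455 to 0.563 for Egr2 and -2.22 to 0.575 for Egr3. In PP1 against MEKi they were -0.142 to 0.423 for Egr1, -0.632 to 2.14 for Egr3, -0.0159 to 0.264 for Nab1 and -0.130 to 0.00693 for Nab2. For the Egr2 interaction of PP1 against MEKi they were -0.127 to 0.920. The cause of these moves was not tested. DMSO had 2 libraries, so leaving one out leaves a lone library that is assumed to vary like the other groups. Depth limits Egr3 outside the 4OHT libraries, Egr2 and Egr4, where 3 counts are worth 0.247 to 0.766 CPM.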
